A study of Mus musculus with 2 samples.

Results

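The genes described here are a module of 44 symbols for the endoplasmic reticulum (ER), the compartment where secreted and membrane proteins enter the secretory pathway. They were taken by symbol from the 32285 genes of the deposited count tables, where they fill 45 rows because Ddit3 is listed under 2 Ensembl identifiers. Their molecules were counted in single leukocytes of the mouse aorta, gated on CD45, the surface antigen of white blood cells. One library came from animals treated with ZnDPA@siIRF5, a preparation whose name gives a small interfering RNA and its target, the transcription factor IRF5. The other library came from a control group. They are called the treated-labelled and control-labelled library. The labels give no number of animals, genotype, diet, sex or age, nor what the control group received, and each group is 1 library, so no test between groups was possible. The second Ddit3 identifier held 0 UMIs in both libraries and is not described further.

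A secretory protein is carried into the ER through the Sec61 channel, loses its signal peptide, and is folded by chaperones and by enzymes that form disulphide bonds. Chains that fail to fold are returned to the cytosol for degradation. When unfolded chains accumulate, sensors in the ER membrane (IRE1, PERK and ATF6, encoded by Ern1, Eif2ak3 and Atf6) start the unfolded protein response. IRE1 splices the Xbp1 transcript into the form that encodes an active transcription factor, PERK favours translation of ATF4 and, through it, CHOP (Ddit3), and ATF6 is cut to release a factor of its own. Plasma cells, the antibody-secreting end stage of the B lineage, require XBP1 to build their large ER. The counts used here come from 3′ tags and do not tell spliced from unspliced Xbp1.

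A total of 13155 barcodes with 77856529 UMIs were read in the treated-labelled library, and 12516 barcodes with 88567528 UMIs in the control-labelled library. A UMI is a unique molecular identifier, which marks 1 captured molecule of transcript. After filters on genes, mitochondrial UMIs and doublets, 11805 and 11523 cells were kept in the treated-labelled and control-labelled libraries. They fell into 28 clusters, which were grouped into 16 classes by marker genes outside the module, and the module was also kept out of the clustering. A class called "X-like" carries the markers of that cell type. All kept cells outside the plasma cell-like class are together called other leukocytes. They include a cluster without a name (unnamed cluster 2) and fibroblast-like cells, 84 in the treated-labelled and 101 in the control-labelled library. The makeup of other leukocytes differed between the libraries. Of all kept cells, B cell-like cells were 7.49% in the treated-labelled and 13.1% in the control-labelled library. Germinal centre B cell-like cells were 0.534% and 3.13%, and neutrophil-like cells 19.5% and 11.1%. Ratios over other leukocytes are therefore not like for like between the libraries. Plasma cell-like cells numbered 393 in the treated-labelled library (3.33%) and 1239 in the control-labelled library (10.8%), and immunoglobulin genes held 50.9% and 51.8% of their UMIs. Jchain, the joining chain of secreted antibody, stood there at 28034 and 21649.6 CPM (UMIs for each 1000000 UMIs of the cells summed) in the treated-labelled and control-labelled libraries, and Sdc1, the plasma cell surface marker syndecan-1, at 113 and 99.8 CPM. Plasma cell transcripts counted in other classes differed between the libraries. In T cell-like cells Jchain stood at 45.7 CPM in the treated-labelled library and 153 CPM in the control-labelled library. Whether they came from free RNA or from mixed droplets, which hold several cells, was not tested. Of the barcode sequences, 45 occurred in both libraries, 37 of them among kept cells. Irf5, the gene the treatment names, stood in macrophage-like cells at 121 CPM in the treated-labelled library against 108 CPM in the control-labelled library, and its interval lay below 0 in none of the 11 classes with 100 or more cells per library, and above 0 in T cell-like, macrophage-like, monocyte-like and neutrophil-like cells (neutrophil-like 41.2 against 25.9 CPM). In the classes with an interval above 0, the summed level of the named target was therefore higher in the treated-labelled library. The makeup of a class was not separated from the level in its cells.

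Factors of the unfolded protein response are known to act through a promoter sequence called the ER stress response element (ERSE), CCAAT followed after 9 bases of any kind by CCACG, bound by NF-Y at the first part and by ATF6 or XBP1 at the second. RefSeq promoters on GRCm38.p6, 250 bases before to 50 after each annotated start, were at hand for 36 of the 44 members (41 promoters). On either strand, an exact ERSE stood in the promoters of 10 of these 36 genes (27.8%), in 10 of the 41 promoters (24.4%), and in 39 of all 32851 promoters of the table (0.119%). The members' elements are shown because few other promoters of the table hold one. Each is written 5′ to 3′ on the strand that reads CCAAT first, with both fixed parts in capitals.

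Hspa5: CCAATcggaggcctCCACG
Hsp90b1 (opposite to the gene): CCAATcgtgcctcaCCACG
Hsp90b1 (same strand as the gene): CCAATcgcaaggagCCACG
Calr: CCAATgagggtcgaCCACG
Canx: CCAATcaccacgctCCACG
Creld2: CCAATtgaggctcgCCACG
Dnajc3: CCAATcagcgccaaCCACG
Pdia6: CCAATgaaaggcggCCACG
Ero1lb: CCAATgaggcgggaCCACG
Derl3: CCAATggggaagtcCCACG
Syvn1: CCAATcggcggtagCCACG

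Hspa5 encodes BiP, the main Hsp70 chaperone of the ER, and its element lay at chr2:34772025-34772043 on the plus strand, the strand of the gene. The pair of elements before Hsp90b1, which encodes the ER chaperone GRP94, lay at chr10:86705533-86705551 and chr10:86705638-86705656, and the gene runs on the minus strand. A related element, ERSE-II, reads ATTGG, 1 base of any kind and CCACG. It was found in the promoters of 2 members, Herpud1 and Dnajb11, and in 12 of all 32851 promoters (0.0365%). The whole 300 bases of the Hspa5 and Herpud1 promoters follow, the first as the best known target of the response and the second because Herpud1 differed most between the libraries in plasma cell-like cells. Capitals mark the fixed bases of the ERSE in Hspa5, and of the ERSE-II and of a C/EBP-ATF element (TGATGNAA, here on the opposite strand) in Herpud1.

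Hspa5 promoter: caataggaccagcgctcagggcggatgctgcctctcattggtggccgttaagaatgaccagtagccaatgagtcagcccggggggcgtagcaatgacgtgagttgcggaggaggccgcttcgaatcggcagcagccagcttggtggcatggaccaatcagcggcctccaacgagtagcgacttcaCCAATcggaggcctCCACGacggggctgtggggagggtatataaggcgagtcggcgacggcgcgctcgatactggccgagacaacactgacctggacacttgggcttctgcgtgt
Herpud1 promoter: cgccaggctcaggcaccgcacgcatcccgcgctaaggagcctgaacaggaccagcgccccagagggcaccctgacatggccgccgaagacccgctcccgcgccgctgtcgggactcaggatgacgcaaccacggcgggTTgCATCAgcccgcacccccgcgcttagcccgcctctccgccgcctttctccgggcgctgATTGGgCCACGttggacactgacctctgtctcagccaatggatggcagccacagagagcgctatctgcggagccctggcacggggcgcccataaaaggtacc

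These windows lie on GRCm38.p6 at chr2:34771840-34772139 and chr8:94386179-94386478, both on the plus strand. The C/EBP-ATF element, the site at which ATF4 and CHOP act, matched 2 members' promoters (Herpud1 and Txndc5) of 41 (4.88%) and 3.97% of all promoters. TGACGTGG, the core read by XBP1 and ATF6, matched 1 (Txndc5) and 0.676% of all. The short CCACG, which is part of the ERSE and ERSE-II, matched 30 of 41 (73.2%) against 32.8% of all. A match describes the letters in this window and does not show binding. The 10 members with an ERSE had a median log2 ratio of 1.55 between plasma cell-like cells and other leukocytes in the treated-labelled library and 1.53 in the control-labelled library, and the 26 without one 1.61 and 1.57, so the medians with and without an exact ERSE lay close.

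The module took up a larger part of the RNA of plasma cell-like cells than of all other leukocytes together. Summed over its rows, it held 24176 CPM in plasma cell-like cells (exact 95% Poisson interval 24065 to 24286) and 6055 CPM in other leukocytes (6036 to 6074) of the treated-labelled library. In the control-labelled library it held 24832 CPM in plasma cell-like cells (24768 to 24895) and 5736 CPM in other leukocytes (5716 to 5755). Intervals here and below cover counting error only, not the spread between animals or libraries. The ratio was 2.0 on the log2 scale in the treated-labelled library and 2.11 in the control-labelled library. Since immunoglobulin takes about as many UMIs as all other genes in these cells, the ratio came to 3.02 and 3.16 when UMIs outside immunoglobulin genes formed the scale.

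Of the 44 members with at least 20 UMIs, 31 were at least 2-fold higher in plasma cell-like cells in the treated-labelled library and 32 in the control-labelled library, and 0 were at least 2-fold lower in either. Among all genes measured in this way, 5.06% were at least 2-fold higher in the treated-labelled library and 5.04% in the control-labelled library, and 55.7% and 62.4% were at least 2-fold lower. The members' median log2 ratio was 1.58 in the treated-labelled library and 1.53 in the control-labelled library, against −1.16 and −1.33 over all genes. All these values are on the scale of all UMIs. Outside immunoglobulin genes, the log2 ratios of other genes are higher by a fixed amount within each library. For Atf4 the ratio was −0.03 and 0.996 on these scales in the treated-labelled library. The all-gene shares and medians were not recomputed outside immunoglobulin genes. Plasma cell-like cells had the highest level of all 16 classes in both libraries for 25 of the 45 rows, as they did for 1.77% of all genes with at least 50 UMIs. These are comparisons of clusters drawn from the same cells, with 1 library on each side, and carry no test. The members were chosen with earlier results of these data known.

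**Figure D1:**
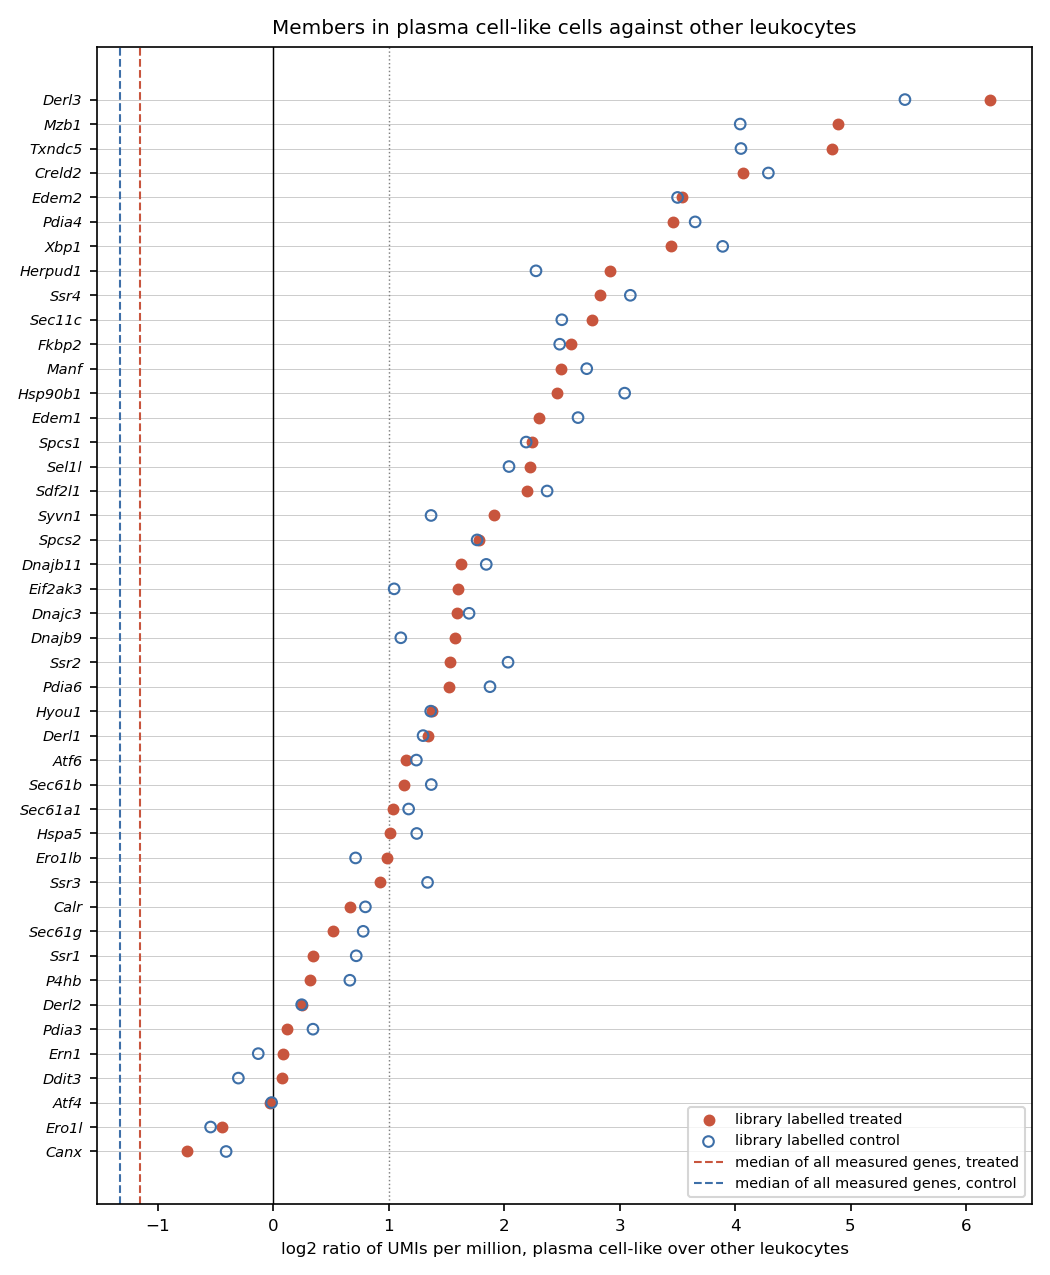
Log2 ratio of CPM in plasma cell-like cells over other leukocytes (x axis) for the 44 measured members (y axis), with filled points for the treated-labelled library and open points for the control-labelled library. The dotted line marks 2-fold and dashed lines the medians over all measured genes (−1.16 and −1.33); 31 and 32 members lie beyond 2-fold, and Canx, Ero1l and Atf4 lie below 0 in both libraries on this scale of all UMIs.

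Among the sensors and transcription factors, Xbp1 stood apart. It was counted at 1055 CPM in plasma cell-like cells and 97.0 CPM in other leukocytes of the treated-labelled library. Xbp1 in the control-labelled library stood at 1134 CPM in plasma cell-like cells and 76.4 CPM in other leukocytes. The log2 ratio was 3.44 in the treated-labelled library and 3.89 in the control-labelled library. Plasma cell-like cells, 3.33% and 10.8% of the cells, supplied 56.8% of all Xbp1 UMIs in the treated-labelled library and 85.7% in the control-labelled library. Eif2ak3, which encodes PERK, was counted at 172 CPM in plasma cell-like cells and 56.7 CPM in other leukocytes of the treated-labelled library. Eif2ak3 in the control-labelled library stood at 159 CPM in plasma cell-like cells and 76.9 CPM in other leukocytes. Its highest class was B cell-like, at 245 CPM in the treated-labelled library and 247 CPM in the control-labelled library, but plasma cell-like on the scale of UMIs outside immunoglobulin genes. Atf6 was higher by 1.15 in the treated-labelled library and 1.24 in the control-labelled library on the log2 scale. On the scale of all UMIs, the other factors lay within 2-fold. Atf4, whose protein is controlled mainly at translation, was counted at 188 CPM in plasma cell-like cells and 191 CPM in other leukocytes of the treated-labelled library. Atf4 in the control-labelled library stood at 159 CPM in plasma cell-like cells and 161 CPM in other leukocytes. Ddit3, which encodes the pro-apoptotic factor CHOP, was counted at 31.8 CPM in plasma cell-like cells and 30.1 CPM in other leukocytes of the treated-labelled library. Ddit3 in the control-labelled library stood at 21.8 CPM in plasma cell-like cells and 26.9 CPM in other leukocytes. Ern1, which encodes IRE1, was counted at 258 CPM in plasma cell-like cells and 243 CPM in other leukocytes of the treated-labelled library. Ern1 in the control-labelled library stood at 255 CPM in plasma cell-like cells and 279.8 CPM in other leukocytes. Outside immunoglobulin genes these factors were higher in plasma cell-like cells, at log2 ratios of 0.996 in the treated-labelled library and 1.03 in the control-labelled library for Atf4, 1.10 in the treated-labelled library and 0.74 in the control-labelled library for Ddit3 and 1.11 in the treated-labelled library and 0.91 in the control-labelled library for Ern1. No measured member lay below 0 on that scale in either library, and the sign turned for 3 members (Atf4, Canx and Ero1l) in the treated-labelled library and for 5 (these and Ern1 and Ddit3) in the control-labelled library.

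Most chaperones were higher in plasma cell-like cells. Hsp90b1 was counted at 1997 CPM in plasma cell-like cells and 364 CPM in other leukocytes of the treated-labelled library. Hsp90b1 in the control-labelled library stood at 2649.5 CPM in plasma cell-like cells and 322 CPM in other leukocytes. Mzb1, a cofactor of GRP94 in B-lineage cells that assists immunoglobulin assembly, was counted at 2965 CPM in plasma cell-like cells and 100.1 CPM in other leukocytes of the treated-labelled library. Mzb1 in the control-labelled library stood at 3326 CPM in plasma cell-like cells and 202 CPM in other leukocytes. Its log2 ratio of 4.89 in the treated-labelled library and 4.04 in the control-labelled library was among the largest of the module in both libraries. B cell-like and germinal centre B cell-like cells, which hold Mzb1, were a larger part of other leukocytes in the control-labelled library. Their part in the difference between these ratios was not tested. Hspa5 had a smaller ratio, at 1012 CPM in plasma cell-like cells and 503 CPM in other leukocytes of the treated-labelled library. Hspa5 in the control-labelled library stood at 931 CPM in plasma cell-like cells and 394 CPM in other leukocytes. Creld2 and Manf, small secreted proteins induced by ER stress, had log2 ratios of 4.07 (Creld2) and 2.49 (Manf) in the treated-labelled library and 4.29 (Creld2) and 2.71 (Manf) in the control-labelled library. Manf was counted at 1096 CPM in plasma cell-like cells and 195 CPM in other leukocytes of the treated-labelled library. Manf in the control-labelled library stood at 1184 CPM in plasma cell-like cells and 180.5 CPM in other leukocytes. Sdf2l1 and Dnajb11, which work with BiP, had ratios of 2.20 (Sdf2l1) and 1.63 (Dnajb11) in the treated-labelled library and 2.37 (Sdf2l1) and 1.84 (Dnajb11) in the control-labelled library. Calr and Canx encode calreticulin and calnexin, lectins that hold glycoproteins during folding. Calr was counted at 484 CPM in plasma cell-like cells and 306 CPM in other leukocytes of the treated-labelled library. Calr in the control-labelled library stood at 523 CPM in plasma cell-like cells and 301 CPM in other leukocytes. Canx was lower in plasma cell-like cells on this scale, at 114 CPM in plasma cell-like cells and 191 CPM in other leukocytes of the treated-labelled library. Canx in the control-labelled library stood at 129.6 CPM in plasma cell-like cells and 172 CPM in other leukocytes. On the scale of UMIs outside immunoglobulin genes its direction turned, with log2 ratios of 0.28 in the treated-labelled library and 0.63 in the control-labelled library. It is the member with the lowest ratio in the treated-labelled library.

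The enzymes of disulphide bonding divided in a like manner. Txndc5, a thioredoxin-domain isomerase abundant in plasma cells, was counted at 1123 CPM in plasma cell-like cells and 39.2 CPM in other leukocytes of the treated-labelled library. Txndc5 in the control-labelled library stood at 775 CPM in plasma cell-like cells and 46.8 CPM in other leukocytes. Pdia4, another isomerase of the family, was counted at 611 CPM in plasma cell-like cells and 55.6 CPM in other leukocytes of the treated-labelled library. Pdia4 in the control-labelled library stood at 720.3 CPM in plasma cell-like cells and 57.2 CPM in other leukocytes. Pdia6 had a log2 ratio of 1.52 in the treated-labelled library and 1.88 in the control-labelled library. Pdia3, which acts on glycoproteins with calreticulin and calnexin, had ratios of 0.12 in the treated-labelled library and 0.34 in the control-labelled library, and P4hb, the founding isomerase, ratios of 0.32 in the treated-labelled library and 0.66 in the control-labelled library. Of the oxidases that recharge these enzymes, Ero1l was counted at 36.6 CPM in plasma cell-like cells and 49.9 CPM in other leukocytes of the treated-labelled library. Ero1l in the control-labelled library stood at 30.8 CPM in plasma cell-like cells and 44.98 CPM in other leukocytes. Its log2 ratio was −0.45 in the treated-labelled library and −0.54 in the control-labelled library, and it turned to 0.58 in the treated-labelled library and 0.50 in the control-labelled library outside immunoglobulin genes. Ero1lb, its relative, was counted at 117 CPM in plasma cell-like cells and 59.5 CPM in other leukocytes of the treated-labelled library. Ero1lb in the control-labelled library stood at 112 CPM in plasma cell-like cells and 68.6 CPM in other leukocytes. Fkbp2, a proline isomerase of the ER, had ratios of 2.58 in the treated-labelled library and 2.48 in the control-labelled library.

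In ER-associated degradation the largest ratio was that of Derl3, a channel-forming derlin, at 260.2 CPM in plasma cell-like cells and 3.53 CPM in other leukocytes of the treated-labelled library. Derl3 in the control-labelled library stood at 295 CPM in plasma cell-like cells and 6.66 CPM in other leukocytes. Its relatives Derl1 and Derl2 had log2 ratios of 1.34 (Derl1) and 0.25 (Derl2) in the treated-labelled library and 1.30 (Derl1) and 0.24 (Derl2) in the control-labelled library. Herpud1, a membrane protein of the ubiquitin ligase complex, was counted at 1168 CPM in plasma cell-like cells and 154 CPM in other leukocytes of the treated-labelled library. Herpud1 in the control-labelled library stood at 704 CPM in plasma cell-like cells and 146 CPM in other leukocytes. Edem1 and Edem2, which mark misfolded glycoproteins by trimming mannose, had ratios of 2.30 (Edem1) and 3.54 (Edem2) in the treated-labelled library and 2.64 (Edem1) and 3.501 (Edem2) in the control-labelled library. Edem1 was counted at 704 CPM in plasma cell-like cells and 143 CPM in other leukocytes of the treated-labelled library. Edem1 in the control-labelled library stood at 713 CPM in plasma cell-like cells and 114 CPM in other leukocytes. Sel1l and Syvn1, the adaptor and the ligase of the central degradation complex, had ratios of 2.22 (Sel1l) and 1.91 (Syvn1) in the treated-labelled library and 2.04 (Sel1l) and 1.37 (Syvn1) in the control-labelled library.

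At the translocon, Ssr4, a subunit of the translocon-associated complex, was counted at 1683 CPM in plasma cell-like cells and 236 CPM in other leukocytes of the treated-labelled library. Ssr4 in the control-labelled library stood at 1998 CPM in plasma cell-like cells and 234 CPM in other leukocytes. The other subunits of that complex had smaller ratios, which were 1.53 in the treated-labelled library and 2.03 in the control-labelled library for Ssr2, 0.92 in the treated-labelled library and 1.33 in the control-labelled library for Ssr3 and 0.34 in the treated-labelled library and 0.72 in the control-labelled library for Ssr1. Sec11c, a catalytic subunit of signal peptidase, was counted at 1223 CPM in plasma cell-like cells and 180.4 CPM in other leukocytes of the treated-labelled library. Sec11c in the control-labelled library stood at 969 CPM in plasma cell-like cells and 172 CPM in other leukocytes. Its partners Spcs1 and Spcs2 had ratios of 2.24 (Spcs1) and 1.78 (Spcs2) in the treated-labelled library and 2.19 (Spcs1) and 1.76 (Spcs2) in the control-labelled library. Of the Sec61 channel, Sec61b was counted at 1029 CPM in plasma cell-like cells and 471 CPM in other leukocytes of the treated-labelled library. Sec61b in the control-labelled library stood at 1107 CPM in plasma cell-like cells and 429 CPM in other leukocytes. Sec61a1 had ratios of 1.03 in the treated-labelled library and 1.17 in the control-labelled library, and Sec61g of 0.52 in the treated-labelled library and 0.78 in the control-labelled library.

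On the scale of all UMIs, some members were highest outside the plasma cells. Plasma cell-like cells were the highest class for 28 members in the treated-labelled library and 25 in the control-labelled library on that scale, and for 38 in each library on the scale of UMIs outside immunoglobulin genes. Ern1 had its highest level in ILC2-like cells, the group 2 innate lymphoid cells that secrete interleukin-5 and interleukin-13, at 2205 CPM in the treated-labelled library and 2709 CPM in the control-labelled library. The classes just below were NK cell-like, at 679.9 CPM in the treated-labelled library and 1126 CPM in the control-labelled library, and the unnamed cluster 2, at 689 CPM in the treated-labelled library and 1054 CPM in the control-labelled library. The ILC2-like level was therefore over 2-fold above every other class in each library, over 122 and 133 ILC2-like cells of the treated-labelled and control-labelled libraries. Ero1l and Atf4 were highest in mast cell-like cells in both libraries, Ero1l at 389 CPM in the treated-labelled library and 556 CPM in the control-labelled library, although these cells number only 89 and 50. Ero1lb was highest in a dendritic class (cDC1-like) of the treated-labelled library, at 221 CPM against 194 CPM in B cell-like cells. In the control-labelled library it was highest in B cell-like cells, at 196 CPM against 177 CPM in cDC1-like cells. Sec61g and Ssr1 were highest in granulocyte precursor-like cells, and Sec61a1 in plasmacytoid dendritic (pDC-like) cells, in both libraries, but outside immunoglobulin genes plasma cell-like cells were highest for these 3 and for Ero1lb, while Ern1, Ero1l and Atf4 kept the classes named above. The pDC-like cells numbered only 65 in the treated-labelled and 42 in the control-labelled library, and the granulocyte precursor-like cells 353 and 79. Some of these leads were small. Ssr1 stood at 149.6 CPM against 146.4 CPM in pDC-like cells of the treated-labelled library. Sec61a1 stood at 141 CPM against 127 CPM in mast cell-like cells of the control-labelled library.

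Neutrophil-like cells lay at the other end, with 2212 CPM of summed module UMIs in the treated-labelled library and 2717 CPM in the control-labelled library. The other classes lay between 3865 CPM (unnamed cluster 2) and 10064 CPM (germinal centre B cell-like) in the treated-labelled library, and between 3888 CPM (unnamed cluster 2) and 10774 CPM (fibroblast-like) in the control-labelled library. Immunoglobulin genes held 1.05% of the UMIs of fibroblast-like cells and 0.319% of those of mast cell-like cells in the treated-labelled library, against 10.7% and 6.53% in the control-labelled library. Whether mixed droplets raise the module's level there was not tested.

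**Figure D2:**
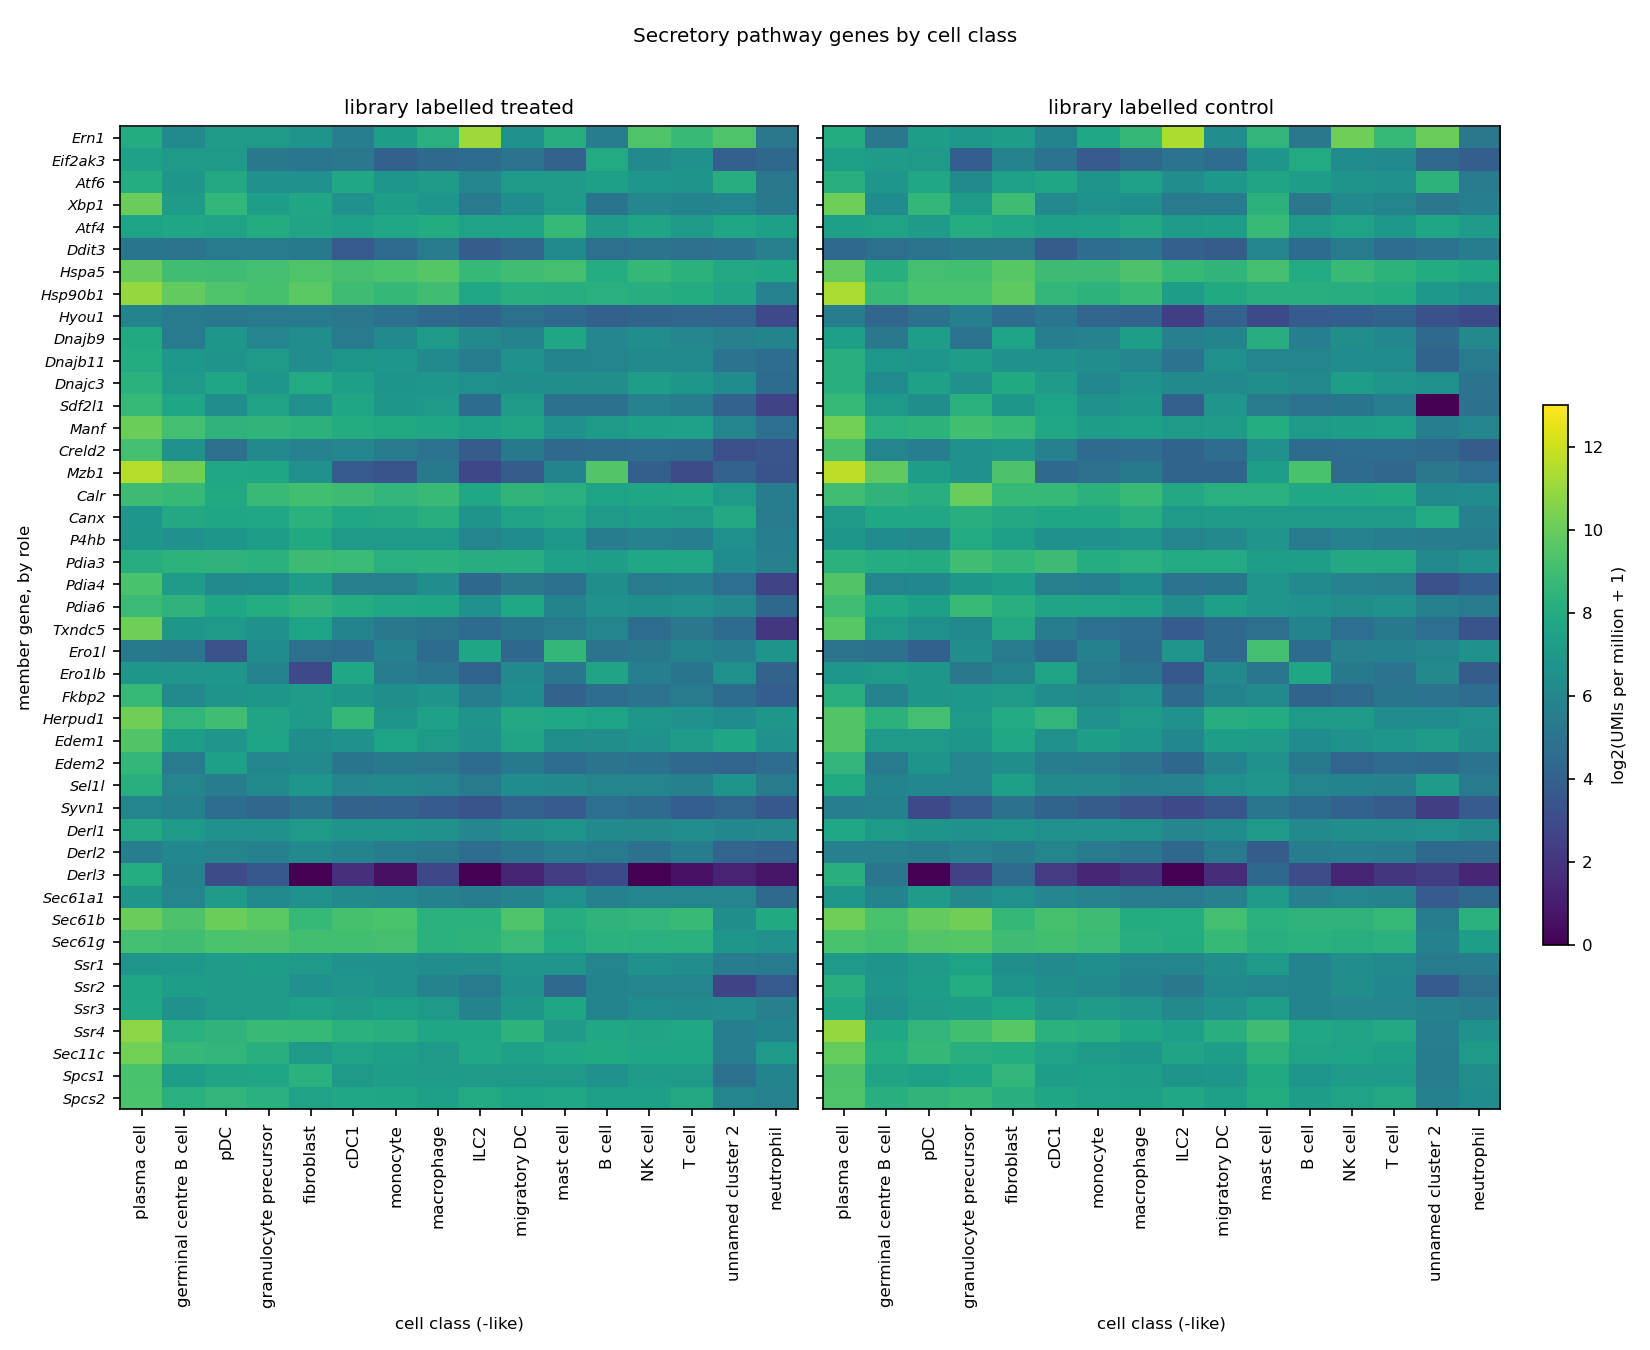
Level of the 44 measured members (rows, ordered by role) in 16 cell classes (columns, ordered by the summed level in the treated-labelled library), as log2(CPM + 1), with the treated-labelled library on the left and the control-labelled library on the right. The plasma cell-like column is brightest for most rows, Ern1 is brightest in ILC2-like cells, and the neutrophil-like column is dark for most rows.

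Along the B lineage the module was low in B cell-like cells, somewhat higher in germinal centre B cell-like cells and highest in plasma cell-like cells. The summed level was 5500.2 CPM in B cell-like and 10064 CPM in germinal centre B cell-like cells of the treated-labelled library, and 5176 CPM and 7775 CPM in those of the control-labelled library. Xbp1 stood at 32.6 CPM in B cell-like cells, 145 CPM in germinal centre B cell-like cells and 1055 CPM in plasma cell-like cells of the treated-labelled library. In the control-labelled library the same classes held 35.1, 79.3 and 1134 CPM. Mzb1 was already high in B cell-like cells, at 746 CPM in the treated-labelled library and 621 CPM in the control-labelled library, and Ero1lb and Eif2ak3 were higher there than in plasma cell-like cells in both libraries on the scale of all UMIs, and lower there outside immunoglobulin genes. Against B cell-like cells alone, 33 of 44 members were at least 2-fold higher in plasma cell-like cells of the treated-labelled library and 34 in those of the control-labelled library (background 8.3% and 9.95%), and 0 were at least 2-fold lower (background 56.1% and 54.7%). These counts and shares are on the scale of all UMIs.

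Plasma cell-like cells held a cycling cluster, marked by genes of DNA replication and mitosis, with 26 cells in the treated-labelled library and 191 in the control-labelled library, and a non-cycling one with 367 and 1048 cells. The cycling cells had 32423 CPM of module UMIs and the non-cycling 23437 CPM in the treated-labelled library, and 35605 CPM and 22054 CPM in the control-labelled library. This order turned round when immunoglobulin UMIs were left out of the scale, with 44031 CPM in cycling and 50014 CPM in non-cycling cells of the treated-labelled library, and 46157 CPM and 54096 CPM in those of the control-labelled library. Immunoglobulin took 26.4% and 22.9% of the UMIs of cycling cells against 53.1% and 59.2% of those of non-cycling cells in the treated-labelled and control-labelled libraries. On the scale of all UMIs, 19 of 44 members were at least 1.5-fold higher in cycling cells in the treated-labelled library and 24 in the control-labelled library, fewer than the 54.5% and 67% of all genes, and 3 and 1 were at least 1.5-fold lower, where 10.5% and 6.96% of all genes were. The members' median was 0.44 in the treated-labelled library and 0.66 in the control-labelled library, below the all-gene medians of 0.67 and 0.92.

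Outside immunoglobulin genes the sign of the ratio turned for 16 members in the treated-labelled library and 18 in the control-labelled library. On the scale of all UMIs the subunits of 1 complex parted. Ssr2 was counted at 543 CPM in cycling and 179 CPM in non-cycling cells of the treated-labelled library, and at 735 and 177 CPM in those of the control-labelled library, and Ssr1 and Ssr3 were higher in cycling cells too, by 1.42 and 1.07 on the log2 scale in the treated-labelled library and 1.76 and 1.20 in the control-labelled library. Ssr4 ran the other way, with 1152 CPM in cycling and 1730.5 CPM in non-cycling cells of the treated-labelled library and 1249 and 2191 CPM in those of the control-labelled library. Hsp90b1, Calr, Pdia3 and Pdia6 were higher in cycling cells by 0.95 (Hsp90b1) to 1.30 (Pdia6) in the treated-labelled library and by 1.17 (Hsp90b1) to 1.65 (Calr) in the control-labelled library. Xbp1, Txndc5, Herpud1 and Sel1l were lower in cycling cells in both libraries, Xbp1 at a log2 ratio of −0.31 in the treated-labelled library and −0.23 in the control-labelled library.

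**Figure D3:**
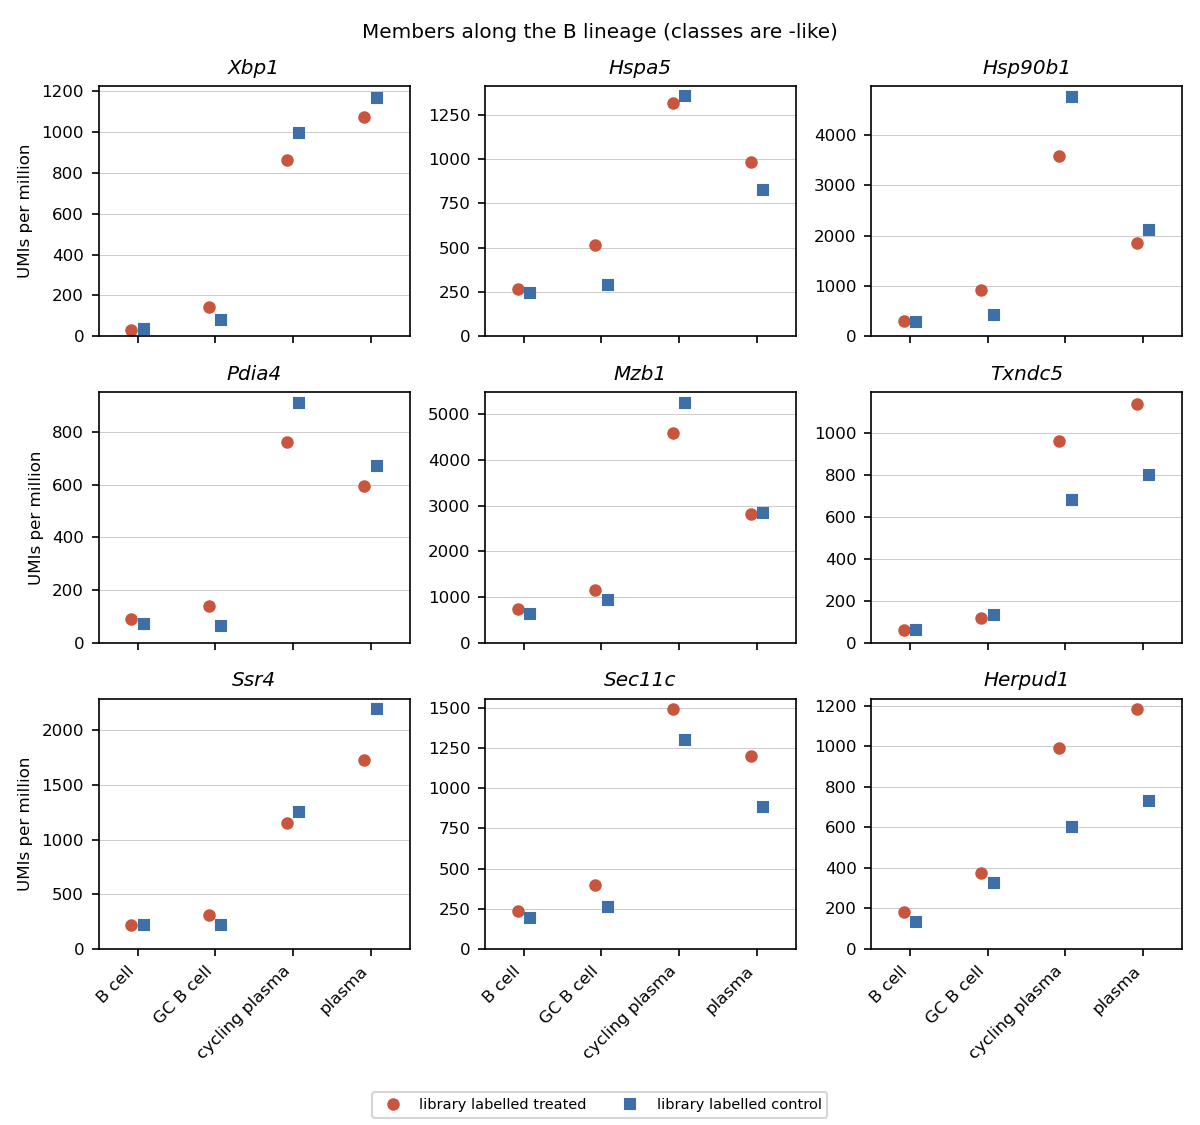
Level of 9 members, in CPM, in B cell-like, germinal centre (GC) B cell-like, cycling plasma cell-like and non-cycling plasma cell-like cells (x axis, labelled plasma), with circles for the treated-labelled library and squares for the control-labelled library. Hsp90b1 and Mzb1 peak in the cycling cells (Mzb1 not in the control-labelled library on the scale of UMIs outside immunoglobulin genes), while Ssr4, Xbp1, Txndc5 and Herpud1 are highest in the non-cycling cells of both libraries.

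Cell by cell, the module made up a median of 2.04% of the UMIs of a plasma cell-like cell in the treated-labelled library (5th to 95th percentile 1.17 to 5.14%) and 2.02% in the control-labelled library (0.992 to 5.75%). The median was 0.488% and 0.471% in B cell-like cells and 0.194% and 0.202% in neutrophil-like cells of the treated-labelled and control-labelled libraries. With every cell thinned to 2000 UMIs, an Xbp1 UMI was found in 83.1% of plasma cell-like cells of the treated-labelled library and 83.8% of the control-labelled library, in 21.1% and 16.3% of macrophage-like cells, and in 5.27% and 6.97% of B cell-like cells. Without thinning the shares were 98.2% and 99.0% of plasma cell-like, 49.0% and 39.3% of macrophage-like and 14.6% and 13.7% of B cell-like cells, at median depths of 18712 and 17749, 6089 and 6054, and 4821.5 and 4126 UMIs in the treated-labelled and control-labelled libraries. Shallower cells were left out of the thinned shares, in the treated-labelled and control-labelled libraries 9 of 393 and 23 of 1239 among plasma cell-like cells. They were 120 of 1773 and 85 of 1396 among macrophage-like cells, and 30 of 884 and 37 of 1514 among B cell-like cells. Among T cell-like cells they were 151 of 2380 and 206 of 3702. Mzb1 was also counted in T cell-like cells, and whether it came there from other cells, as free RNA or in mixed droplets, was not tested. T cell-like cells held an Mzb1 UMI in 1.03% of thinned cells of the treated-labelled library. The share was 4.15% in the control-labelled library, against 93.5% and 92.8% of plasma cell-like cells.

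Between the libraries, the module's share of the RNA in plasma cell-like cells was close, at 24176 CPM in the treated-labelled library against 24832 CPM in the control-labelled library (log2 ratio −0.04). Over all kept cells it was 8004 CPM in the treated-labelled library against 11222 CPM in the control-labelled library, where plasma cell-like cells were 3.33% of cells of the treated-labelled library and 10.8% of those of the control-labelled library. They supplied 32.5% of all module UMIs in the treated-labelled library and 63.6% in the control-labelled library. In plasma cell-like cells 1 of 44 members was at least 1.5-fold higher in the treated-labelled library and 0 were at least 1.5-fold lower, where 11.7% of all genes were higher and 9.85% lower. The median log2 ratio was −0.02 over members and −0.01 over all genes. With the cycling cluster left out, it was 0.18 over members and 0.20 over all genes, with 2 members at least 1.5-fold higher and 0 lower (background 16.9% and 4.57%).

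The member beyond 1.5-fold was Herpud1, at 1168 CPM in the treated-labelled library against 704 CPM in the control-labelled library (log2 ratio 0.73, interval 0.69 to 0.77). Its ratio stayed between 0.70 and 0.76 under every other scaling, clustering and filter that was tried, and the cell with most of it held 1.02% of its UMIs in the treated-labelled library. Dnajb9, a BiP cochaperone that restrains IRE1, stood at 234 CPM in the treated-labelled library against 159.8 CPM in the control-labelled library (0.55, interval 0.47 to 0.63). Fkbp2 stood at 416 CPM in the treated-labelled library against 286 CPM in the control-labelled library (0.54, interval 0.48 to 0.60). Txndc5 was counted at 1123 CPM in the treated-labelled library against 775 CPM in the control-labelled library (0.53, interval 0.50 to 0.57), and Ddit3 at 31.8 CPM in the treated-labelled library against 21.8 CPM in the control-labelled library (0.55, interval 0.32 to 0.77). Syvn1 and Hyou1, an Hsp110-type chaperone of the ER, had log2 ratios of 0.41, interval 0.25 to 0.57 (Syvn1) and 0.40, interval 0.24 to 0.56 (Hyou1). Sec11c stood at 1223 CPM in the treated-labelled library against 969 CPM in the control-labelled library. All 8 of these were higher in the treated-labelled library under each alternative scaling, clustering and filter.

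At the lower end, Ssr2 stood at 209 CPM in the treated-labelled library against 291 CPM in the control-labelled library (−0.48, interval −0.56 to −0.40), but its ratio was 0.02 with the cycling cluster left out. Hsp90b1 was counted at 1997 CPM in the treated-labelled library against 2649.5 CPM in the control-labelled library (−0.41, interval −0.43 to −0.38), and at a ratio of −0.18 without the cycling cluster. Of its UMIs in the treated-labelled library, 6.78% came from a single cell. Ssr4 stood at 1683 CPM in the treated-labelled library against 1998 CPM in the control-labelled library (−0.25, interval −0.28 to −0.22), and Pdia4 at 611 CPM in the treated-labelled library against 720.3 CPM in the control-labelled library (−0.24, interval −0.28 to −0.19). Pdia3 stood at 274 CPM in the treated-labelled library against 313 CPM in the control-labelled library (−0.19, interval −0.26 to −0.12), and Canx at 114 CPM in the treated-labelled library against 129.6 CPM in the control-labelled library (−0.19, interval −0.30 to −0.08). Of the 44 members, 16 had a ratio above 0 and 8 below 0 under each of those alternatives, and the sign of the other 20 depended on the scale or on the clusters counted. Pdia3 and Canx were among the 20. Xbp1 and the 3 sensors were close between the libraries: Xbp1 stood at 1055 CPM in the treated-labelled library against 1134 CPM in the control-labelled library, Ern1 at 258 CPM in the treated-labelled library against 255 CPM in the control-labelled library, Atf6 at 267 CPM in the treated-labelled library against 281 CPM in the control-labelled library, and Eif2ak3 at 172 CPM in the treated-labelled library against 159 CPM in the control-labelled library. Atf4 stood at 188 CPM in the treated-labelled library against 159 CPM in the control-labelled library (0.24, interval 0.15 to 0.33). Hspa5 was counted at 1012 CPM in the treated-labelled library against 931 CPM in the control-labelled library.

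**Figure D4:**
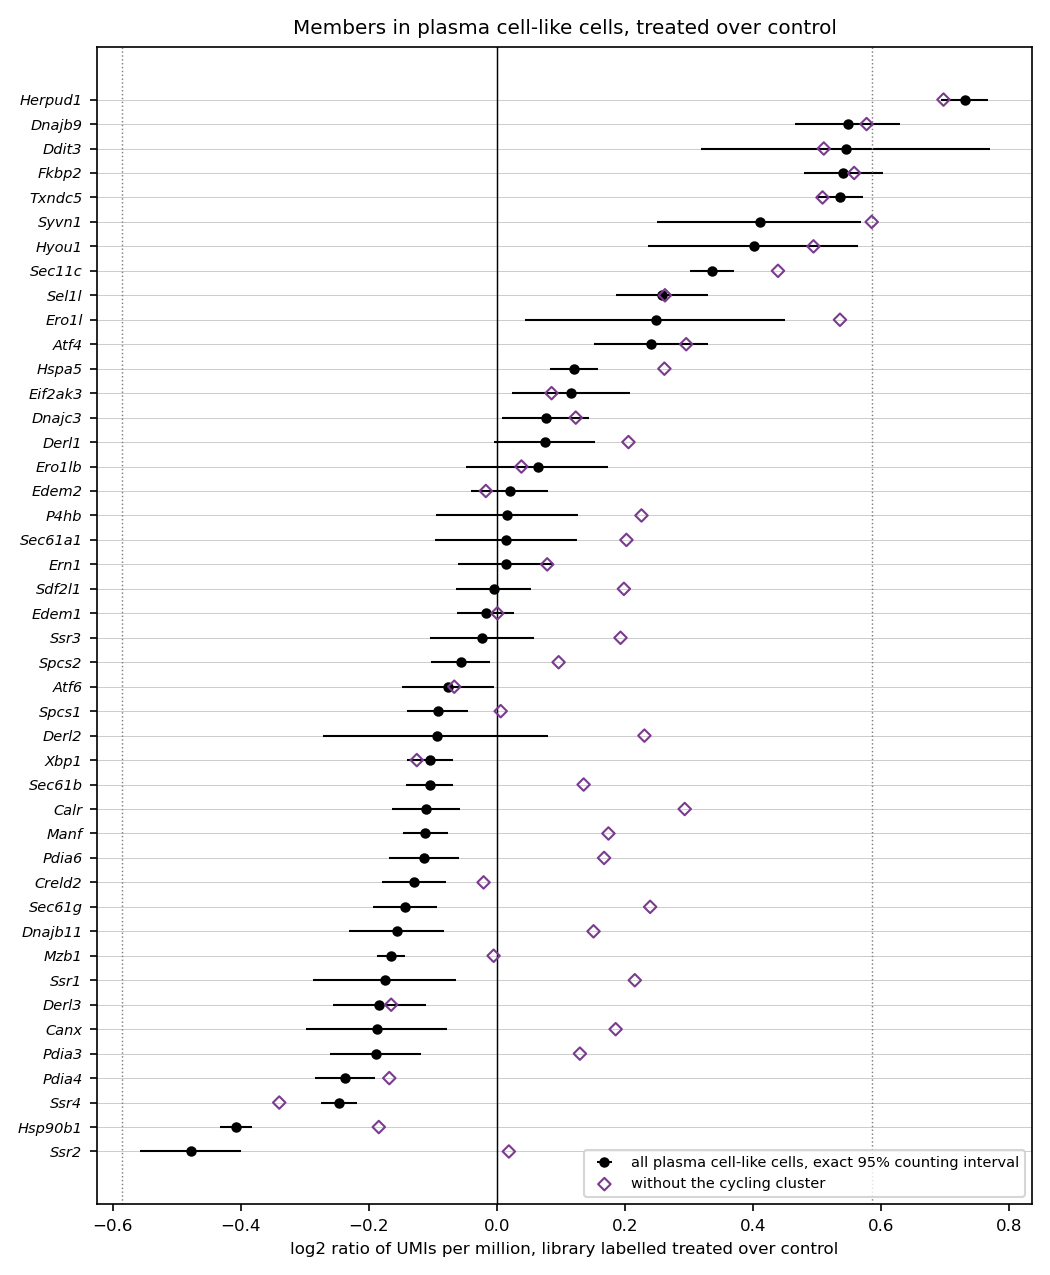
Log2 ratio of CPM in plasma cell-like cells of the treated-labelled library over those of the control-labelled library (x axis) for 44 members (y axis); bars are exact 95% counting intervals, diamonds leave out the cycling cluster, and dotted lines mark 1.5-fold. Herpud1 lies beyond 1.5-fold, and for 17 members, among them Ssr2, Calr and Canx, the diamond lies on the other side of 0 from the point.

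The makeup of the plasma cell-like cells differed between the libraries. By the heavy-chain constant gene that dominated each cell, IgM cells were 53.9% in the treated-labelled library against 32.7% in the control-labelled library, IgG cells 31.8% against 60.9%, and IgA cells 12.5% against 4.44%. The summed module was close across isotypes, at 23011 CPM in IgM, 24953 CPM in IgG and 24880 CPM in IgA cells of the treated-labelled library, and 25546, 24677 and 24585 CPM in those of the control-labelled library. Within isotypes, Herpud1 was higher in the treated-labelled library by 0.77 in IgM, 0.57 in IgG and 0.33 in IgA cells on the log2 scale. Fkbp2 was likewise higher, by 0.41 in IgM, 0.61 in IgG and 0.57 in IgA cells. Txndc5 was different: it stood at 1335 CPM in IgM, 733 CPM in IgG and 1360 CPM in IgA cells of the treated-labelled library. In the control-labelled library the same isotypes held 1206, 503 and 1401 CPM. Of these isotypes, IgG cells held the least Txndc5 and IgA cells the most in each library. Its ratio between the libraries was 0.15 within IgM, 0.54 within IgG and −0.04 within IgA cells. Ddit3 differed by isotype too, at 40.0 CPM in IgM, 20.5 CPM in IgG and 30.9 CPM in IgA cells of the treated-labelled library. In the control-labelled library Ddit3 stood at 30.3 CPM in IgM and 21.3 CPM in IgA cells. The IgA values rest on 33 UMIs in the treated-labelled and 24 in the control-labelled library. The alternative scalings, clusterings and filters did not split the cells by isotype. Hsp90b1 was lower in the treated-labelled library within each isotype, at log2 ratios of −0.64, −0.26 and −0.30 in IgM, IgG and IgA cells. Cycling cells were 4.25% of IgM cells in the treated-labelled library against 14.6% in the control-labelled library, 6.40% of IgG cells against 15.9%, and 16.3% of IgA cells against 18.2%, so these ratios still mix cycling and non-cycling cells, and the part of cycling in them was not tested.

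Outside the plasma cells, the module's median ratio lay near 0 in B, T and NK cell-like cells, above 0 in mononuclear phagocytes and below 0 in neutrophil-like cells. It was 0.02 in B cell-like, 0.01 in T cell-like and 0.00 in NK cell-like cells. The median was 0.19 in macrophage-like cells, 0.28 in monocyte-like cells and 0.27 in migratory dendritic (migratory DC-like) cells. The last class holds all 5 of its markers, but the gene that led it, Cd209a, marks another dendritic type, cDC2. ILC2-like cells had 0.13 and cDC1-like cells, dendritic cells that present to CD8 T cells, 0.13. In NK cell-like cells 2 of 43 members were at least 1.5-fold higher in the treated-labelled library and 3 lower (background 7.56% and 7.49%), in ILC2-like cells 2 of 35 and 1 (12.6% and 10.4%), and in cDC1-like cells 0 of 43 and 1 (9.8% and 5.1%). All-gene medians in these classes lay between −0.03 and 0.08.

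In monocyte-like cells 5 of 43 members were at least 1.5-fold higher in the treated-labelled library and 1 lower, where 5.36% of all genes were higher and 7.54% lower. Creld2 stood at 41.1 CPM in the treated-labelled library against 22.3 CPM in the control-labelled library (0.88, interval 0.61 to 1.16), Dnajc3, an inhibitor of PERK, at 103 CPM in the treated-labelled library against 65.4 CPM in the control-labelled library, Hyou1 at 27.5 CPM in the treated-labelled library against 17.9 CPM in the control-labelled library, Manf at 237 CPM in the treated-labelled library against 155 CPM in the control-labelled library, and Xbp1 at 151 CPM in the treated-labelled library against 99.1 CPM in the control-labelled library. The member beyond 1.5-fold in the other direction was Mzb1, at 9.35 CPM in the treated-labelled library against 26.5 CPM in the control-labelled library. Ern1 stood at 154 CPM in the treated-labelled library against 219.9 CPM in the control-labelled library (−0.51, interval −0.61 to −0.41). In the 3 monocyte-like clusters the members' median was 0.30 in the cluster led by Vcan and Chil3, 0.28 in that led by Ly6i and Lpl, and 0.07 in that led by Cd300e and Ace, with all-gene medians of 0.01, 0.00 and 0.02. Creld2 in the Vcan cluster rested on 243 UMIs in the treated-labelled library and 29 in the control-labelled library (41.7 against 16.2 CPM).

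Macrophage-like cells had 1 of 44 members at least 1.5-fold higher, Derl3, and 0 lower (background 5.12% and 7.58%). Derl3 rested on 73 UMIs in 9 of 1773 cells of the treated-labelled library, 64.4% of them in 1 cell, and on 26 UMIs in 13 of 1396 cells of the control-labelled library, 53.8% of them in 1 cell. Xbp1 stood at 114 CPM in the treated-labelled library against 88.4 CPM in the control-labelled library (0.37, interval 0.25 to 0.50), and Herpud1 at 171 CPM in the treated-labelled library against 134 CPM in the control-labelled library (0.35, interval 0.25 to 0.46). Ern1 stood at 305 CPM in the treated-labelled library against 396 CPM in the control-labelled library (−0.38, interval −0.44 to −0.31). The median was 0.25, 0.26 and 0.15 in the clusters led by Ccl12 and Ccl4, by Spp1 and Trem2, and by Cd209f and Lyve1. In migratory DC-like cells 5 of 43 members were at least 1.5-fold higher and 1 lower (background 12.8% and 6.71%), with Xbp1 at 80.4 CPM in the treated-labelled library against 42.2 CPM in the control-labelled library (0.93, interval 0.57 to 1.30).

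Neutrophil-like cells had 0 of 43 members at least 1.5-fold higher in the treated-labelled library and 14 lower, where 6.85% of all genes were higher and 19% lower, and their median was −0.33 (all genes −0.06). The 2 neutrophil-like clusters had different values, a difference that was not tested. In the cluster led by Camp, Ltf and Ngp, genes of the secondary granules that neutrophils fill while they mature in bone marrow, the median was −0.60 (all genes −0.08) and 23 of 43 members were at least 1.5-fold lower (background 21.7%) and 1, Ero1lb, higher (background 8.9%). In the cluster led by Stfa2l1 and Cstdc4, with Cxcr2, a chemokine receptor of mature neutrophils, among its top 10 genes, the median was −0.12 (all genes 0.03) with 5 of 43 lower (background 8.51%) and 0 higher (background 9.13%). Within the Camp cluster, Sdf2l1 stood at 9.10 against 52.3 CPM in the treated-labelled and control-labelled libraries, Pdia6 at 18.2 against 64.3 CPM, Calr at 33.4 against 114 CPM, Manf at 42.5 against 95.5 CPM and Pdia3 at 77.9 against 165 CPM. Atf4, Ero1l and Herpud1 ran the other way there, Atf4 at 248 against 189 CPM, Ero1l at 184 against 136 CPM and Herpud1 at 90.03 against 64.3 CPM. The cells of this cluster were less deeply read in the treated-labelled library, with a median of 4147 against 5025.5 UMIs, and the part of depth or of the stage of maturation in the result was not tested. At a clustering resolution of 2 the class took in 280 cells of the treated-labelled library and 30 of the control-labelled library that had been granulocyte precursor-like, and its median was 0.56. At resolution 1 the granulocyte precursor-like cells numbered 353 in the treated-labelled and 79 in the control-labelled library. Their median depths were 2507 and 13232 UMIs, so this class was not like for like between the libraries.

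In T cell-like cells 0 of 44 members were at least 1.5-fold higher and 2 lower (background 5.82% and 3.83%), Derl3 with 7 UMIs in the treated-labelled library against 52 in the control-labelled library, and Mzb1 at 7.03 CPM in the treated-labelled library against 18.9 CPM in the control-labelled library. Jchain and Igkc, which T cells do not make, were lower in the treated-labelled library in T cell-like cells as well, at log2 ratios of −1.74 and −2.07, and Mzb1 was lower in monocyte-like and neutrophil-like cells too. These levels may come from plasma cell RNA, free or in mixed droplets, which was not tested. They are not read as expression. B cell-like cells had 0 of 44 members beyond 1.5-fold in either direction (background 5.58% and 5.56%), with Herpud1 at 182 CPM in the treated-labelled library against 133 CPM in the control-labelled library (0.45, interval 0.32 to 0.59) and Dnajb9 at 64.7 CPM in the treated-labelled library against 46.9 CPM in the control-labelled library. In germinal centre B cell-like cells, with 63 cells in the treated-labelled library and 361 in the control-labelled library, 13 of 44 members were at least 1.5-fold higher and 0 lower (background 12.7% and 11.5%), and the median was 0.25 (all genes −0.03). Hsp90b1 stood at 923 against 428 CPM in the treated-labelled and control-labelled libraries, Pdia4 at 139.9 against 61.9 CPM and Xbp1 at 145 against 79.3 CPM. The median cell of this class differed less, with the module at 0.664% of UMIs in the treated-labelled library against 0.628% in the control-labelled library, while the 95th percentile was 2.10% against 1.26%.

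**Figure D5:**
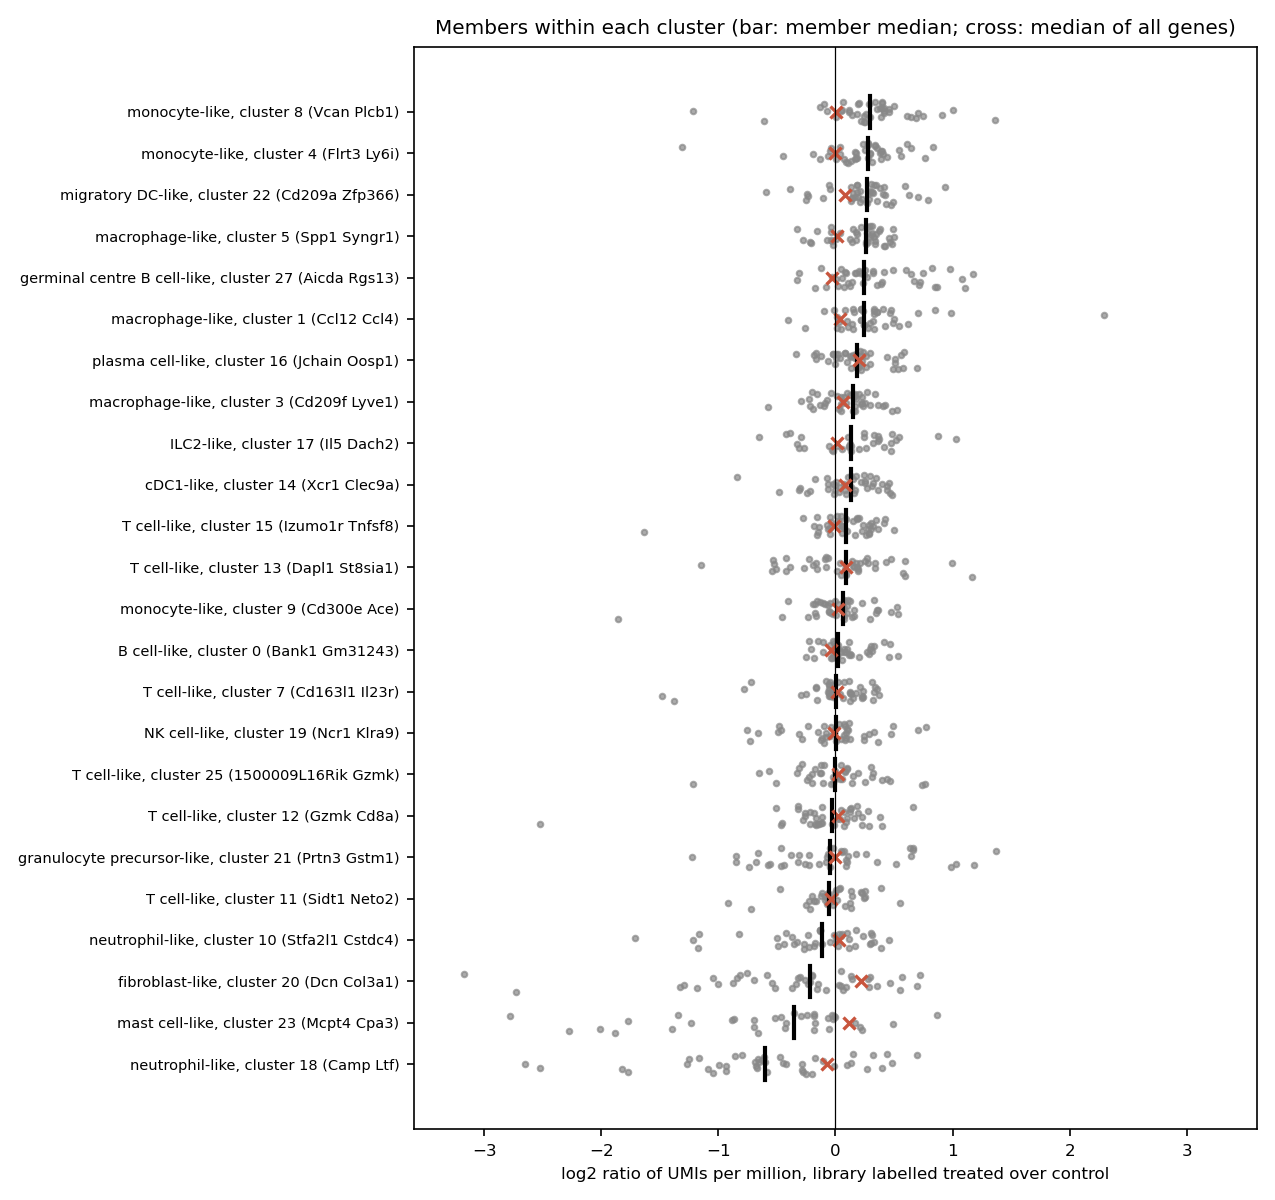
Log2 ratio of CPM, library labelled treated over library labelled control (x axis), for each member with at least 20 UMIs (grey points) in the 24 clusters with a class name and at least 50 cells in each library (y axis, with class, number and leading genes). Bars are member medians and crosses the medians of all genes; the 2 neutrophil-like clusters lie at −0.12 and −0.60, 2 of the monocyte-like clusters at 0.28 and 0.30, and 1 point lies outside the axis.

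Further genes of the pathway, in 10 lists that do not overlap the module, had smaller median ratios in plasma cell-like cells. Members and lists were chosen with earlier results of these data known, so this comparison only describes the genes chosen. Their medians of log2 plasma cell-like over other leukocytes lay between −0.44 (other sensors and factors) and 1.02 (signal recognition particle) in the treated-labelled library, and between −0.39 (other sensors and factors) and 1.13 (oligosaccharyltransferase) in the control-labelled library. Over all genes measured, as above, 5.06% and 5.04% were at least 2-fold higher in the treated-labelled and control-labelled libraries and 55.7% and 62.4% at least 2-fold lower, which is the background for each list that follows. These shares and all list values are on the scale of all UMIs. They were not recomputed outside immunoglobulin genes, where each of these ratios is higher. Genes at least 2-fold lower numbered at most 3 in a list, other than the 5 among the targets of ATF4 and CHOP. Of 8 genes of the signal recognition particle, which brings ribosomes to the ER, and its receptor, 5 were at least 2-fold higher than in other leukocytes in the treated-labelled library and 3 in the control-labelled library. Srprb, a subunit of the receptor, stood at 81.1 CPM in plasma cell-like cells against 21.4 CPM in other leukocytes of the treated-labelled library. Srprb in plasma cell-like cells of the control-labelled library stood at 76.6 CPM, against 24.4 CPM in other leukocytes. Of 11 subunits of the oligosaccharyltransferase, which adds glycans to entering chains, 4 and 6 were higher and 1 and 2 lower in the treated-labelled and control-labelled libraries. Of 10 other genes of the translocon and signal peptidase, 4 were higher in the treated-labelled library and 3 in the control-labelled library. Tram2 stood at 93.1 CPM in plasma cell-like cells against 10.1 CPM in other leukocytes of the treated-labelled library. Tram2 in plasma cell-like cells of the control-labelled library stood at 113 CPM, against 8.74 CPM in other leukocytes. Among 14 other folding enzymes 5 were higher in each library. Fkbp11, a proline isomerase, stood at 212 CPM in plasma cell-like cells against 2.58 CPM in other leukocytes of the treated-labelled library. Fkbp11 in plasma cell-like cells of the control-labelled library stood at 250.6 CPM, against 4.52 CPM in other leukocytes. Prdx4, an ER peroxidase, stood at 438 CPM in plasma cell-like cells against 38.8 CPM in other leukocytes of the treated-labelled library. Prdx4 in plasma cell-like cells of the control-labelled library stood at 421 CPM, against 42.6 CPM in other leukocytes. Among 7 genes of glycan trimming and lectin transport, 1 was higher in each library. It was Lman1, which encodes a cargo receptor, at 226 CPM in plasma cell-like cells against 30.5 CPM in other leukocytes of the treated-labelled library. Lman1 in plasma cell-like cells of the control-labelled library stood at 222 CPM, against 32.1 CPM in other leukocytes.

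Of 13 genes of the COPII coat, which carries cargo out of the ER, and its receptors, 1 was at least 2-fold higher in the treated-labelled library and 2 in the control-labelled library, and of 11 of the COPI coat and the KDEL receptors, which return ER proteins, 4 in each. Kdelr3, 1 of the receptors, stood at 8.40 CPM in plasma cell-like cells against 0.459 CPM in other leukocytes of the treated-labelled library. Kdelr3 in plasma cell-like cells of the control-labelled library stood at 10.0 CPM, against 0.670 CPM in other leukocytes. Of 12 other degradation genes 2 were higher in each library, and of 9 measured other sensors and factors 1 in each. It was Creb3l2, a membrane-bound transcription factor, at 160.1 CPM in plasma cell-like cells against 25.3 CPM in other leukocytes of the treated-labelled library. Creb3l2 in plasma cell-like cells of the control-labelled library stood at 215 CPM, against 38.03 CPM in other leukocytes. The 14 targets of ATF4 and CHOP were split, with 5 and 6 higher and 5 and 5 lower in the treated-labelled and control-labelled libraries. Chac1, a glutathione-degrading enzyme, was counted at 83.6 CPM in plasma cell-like cells against 3.39 CPM in other leukocytes of the treated-labelled library. Chac1 in plasma cell-like cells of the control-labelled library stood at 109 CPM, against 6.28 CPM in other leukocytes. Slc7a11, the cystine transporter, was lower in plasma cell-like cells, at 40.0 CPM in plasma cell-like cells against 555 CPM in other leukocytes of the treated-labelled library. Slc7a11 in plasma cell-like cells of the control-labelled library stood at 4.86 CPM, against 273 CPM in other leukocytes. A comparison list of 14 cytosolic and mitochondrial chaperones had 0 members at least 2-fold higher and 10 and 11 lower, with medians of −1.23 and −1.41 near those of all genes. These values too are on the scale of all UMIs, of which immunoglobulin held 50.9% and 51.8% in plasma cell-like cells of the treated-labelled and control-labelled libraries.

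Between the libraries, 4 of the 14 chaperones in that list were at least 1.5-fold higher in plasma cell-like cells of the treated-labelled library and 0 lower, the heat shock genes Hspa1b, at 34.5 CPM in the treated-labelled library against 3.79 CPM in the control-labelled library, Hspa1a, at 28.5 CPM in the treated-labelled library against 4.98 CPM in the control-labelled library, Dnajb1, at 37.0 CPM in the treated-labelled library against 20.4 CPM in the control-labelled library, and Dnaja1, at 88.3 CPM in the treated-labelled library against 55.2 CPM in the control-labelled library. Over all genes in these cells, 11.7% were at least 1.5-fold higher and 9.85% lower. Heat shock genes are known to respond to handling of tissue, and their part in the module's values was not tested. In the other 10 lists 2 genes were at least 1.5-fold higher and 2 lower: Slc7a11 at 40.0 CPM in the treated-labelled library against 4.86 CPM in the control-labelled library, Tmed3, a cargo receptor, at 76.4 CPM in the treated-labelled library against 50.7 CPM in the control-labelled library, Psat1, an enzyme of serine synthesis, at 18.9 CPM in the treated-labelled library against 34.4 CPM in the control-labelled library, and Trib3, a pseudokinase induced by CHOP, at 2.76 CPM in the treated-labelled library against 4.73 CPM in the control-labelled library.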

How the data were processed

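CD45+ leukocytes of the mouse aorta were measured in 2 single-cell libraries, 1 for each group, with 10x Chromium 3′ chemistry per the labels' protocols. The deposited matrices hold raw counts of UMIs for each gene and barcode. Their headers name cellranger-7.2.0, while the submitters' processing notes list Cell Ranger 3.1.0, Seurat 4.4.0 and mm10, and neither tells if reads in introns entered the counts.

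Barcodes with at least 500 detected genes and at most 15% mitochondrial UMIs were used. Scrublet, in scanpy 1.11.5, called 684 doublets in the treated-labelled library and 533 in the control-labelled library, fewer than the 10.5% and 10.0% of barcodes set as its expected rate, and these were removed. Barcodes found in both libraries (45) were kept. The cells of both libraries were clustered together, without batch correction, by the Leiden method at resolution 1 (igraph 0.11.9) on 30 principal components (scikit-learn 1.9.0) of 2000 variable genes. Members of the module, the further pathway lists and immunoglobulin genes were kept out of the variable genes. A class name needed at least 3 detected markers from a fixed list, with no member of the module among them, and the score that ranked the names was set after the data were seen.

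UMIs were summed for each class and library and divided by the sum of all its UMIs (CPM). Genes with under 20 UMIs over both sides of a comparison were left out. Intervals are exact at 95% (Poisson for a level, conditional binomial for a ratio, Clopper-Pearson for a share), and they cover counting error only. With 1 library in each group there are no replicates, no p-values were computed, and a count of genes past 1.5-fold between libraries or 2-fold between classes describes these libraries. The rule for naming let any member be named, and gave in full the 12 members with most UMIs in plasma cell-like cells, the sensors and factors, the 6 highest and 6 lowest ratios between libraries in plasma cell-like cells, up to 4 of each in other classes, and up to 4 genes of each further list by size of ratio, with at least 50 UMIs. The members and lists were chosen with earlier results of these data known. Alternatives were clustering resolution, filters, doublets, scaling (with TMM factors from edgeR 4.0.16 in R 4.3.3), thinning depth and the set of cells called plasma cells. The code for ratios and intervals was tested on simulated data. Other software was Python 3.11.15, numpy 2.4.6, scipy 1.17.1, pandas 2.3.3 and matplotlib 3.10.9. Protein sequences were not used here.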

Additional observations from a re-analysis of the deposited data

Results flagged for a closer look

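The module's median log2 ratio, treated-labelled over control-labelled library, ran in opposite directions in different classes. It was 0.28 in monocyte-like cells and 0.27 in migratory DC-like cells, and −0.33 in neutrophil-like cells. At other clustering resolutions the monocyte-like median was 0.11 (resolution 0.5) and the neutrophil-like median 0.56 (resolution 2, where granulocyte precursor-like cells entered the class). The difference between these classes was not tested, as each group is 1 library.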

How the results depend on the processing

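No paired analysis was possible because each group is 1 library. Results drawn from 1 library in each group carry counting error only. Plasma cell transcripts in other classes, such as Jchain in T cell-like cells, were more abundant in the control-labelled library. Depth limits genes with few UMIs, such as Derl3 outside plasma cells. Of the values that answer a comparison, recomputed under each alternative, 159 lay within the interval of the main value (counts, within 1.5-fold). Another 27 lay outside it, and 5 reversed the sign of a main value whose interval left out 0. A value whose main interval held 0 was not counted as reversed when its sign changed. For a member median, the interval took the median half-width of the single members' intervals. The summed log2 ratio of plasma cell-like over other leukocytes was, in the treated-labelled and control-labelled libraries, 1.95 and 2.04 with doublets kept, 1.95 and 2.09 with at least 1000 genes, 1.98 and 2.09 at 5% mitochondrial UMIs, 3.02 and 3.16 on UMIs outside immunoglobulin, 1.95 and 2.02 with cells of at least 20% immunoglobulin UMIs as plasma cells, and 1.95 and 1.94 without cycling clusters. In the control-labelled library it was 2.12 with all genes allowed in clustering and 2.11 at resolution 0.5. The summed ratio between libraries in plasma cell-like cells (−0.04) was −0.0270 with doublets kept, −0.0635 on UMIs outside immunoglobulin, −0.0233 with TMM and −0.0267 by median of ratios. It turned to 0.0073 in cells of at least 20% immunoglobulin UMIs and to 0.0877 without the cycling cluster, where the members' median was 0.18 and 2 members were at least 1.5-fold higher. The monocyte-like median was 0.11 at resolution 0.5, and the neutrophil-like median turned to 0.56 at resolution 2, where granulocyte precursor-like cells entered the class. The cycling over non-cycling ratio turned to −0.18 in the treated-labelled library and −0.23 in the control-labelled library on UMIs outside immunoglobulin, a scale chosen after seeing the data. Thinned to 1000 UMIs, Xbp1 was found in 64.4% and 63.1% of plasma cell-like, 3.06% and 3.31% of B cell-like and 12.1% and 8.83% of macrophage-like cells. Of the values of single members between libraries in plasma cell-like cells, 436 lay within and 48 outside their counting interval; no member beyond 1.5-fold changed sign, while 20 of 44 members had a sign that depended on the alternative. The causes of the moves were not tested.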
